A study of Mus musculus with 8 samples.

Results

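Glucose transporters and glycolysis enzymes were examined in the RNA-Seq data of articular chondrocytes, the cells of joint cartilage, treated with IL-1β, a cytokine that drives cartilage inflammation. The genes were matched by symbol, by a rule that uses none of their values but was set with earlier results of these data known, and are 10 of the 54658 gene symbols in the count table. They are the glucose transporters Slc2a1 (GLUT1) and Slc2a3 (GLUT3), the hexokinases Hk1 and Hk2, the phosphofructokinase subunit Pfkp, the regulator Pfkfb3, the enzymes Pgk1, Pkm and Ldha, and the pyruvate dehydrogenase kinase Pdk1. All 10 passed the filter on low counts. The comparison set 4 samples treated with IL-1β at 1 ng/mL for 24 h against 4 samples treated with vehicle. Both groups were primary murine articular chondrocytes isolated from femoral head cartilage of wild-type mice aged 3 weeks, with no transgene or deletion in either group, and both were cultured in high-glucose medium with serum. The labels do not state whether the samples came from separate animals or cultures, so that the p-values measure only the spread between these samples.

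Glycolysis splits glucose into pyruvate through a chain of enzymes in the cytosol and yields ATP without oxygen. Cartilage has no blood vessels, and chondrocytes are known to meet most of their ATP demand in this way, releasing lactate. Glucose enters through transporters of the Slc2a family and is trapped by hexokinase. Phosphofructokinase then commits it to breakdown, and PFKFB3 makes the small molecule that activates this step. Lactate dehydrogenase A turns pyruvate into lactate, while the PDH kinases block the entry of pyruvate into mitochondrial oxidation. Several of these genes are textbook targets of the hypoxia-inducible factors (HIFs), transcription factors that recognise a short core motif near their target genes.

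Libraries held 10992355 to 17104351 counts in the IL-1β group and 13970959 to 17456063 counts in the vehicle group. On the scale used here, CPM (the count of a gene relative to the library total), 3 counts correspond to 0.173 to 0.270. All CPM were scaled by TMM factors, which correct for library composition and lay between 0.984 and 1.01. Genes were tested by edgeR's quasi-likelihood test with Benjamini-Hochberg adjustment over 14404 genes, those that exceeded 1 CPM in 4 samples or more. The 10 chondrocyte markers, among them Col2a1 and Acan, were present in every sample, but all 10 were lower with IL-1β (summed level 4202 to 4615 CPM against 16161 to 16782 CPM with vehicle). Of 7 macrophage markers, Cd68 and Cd14 rose, Lyz2 fell and 4 were too low to be tested, with Itgam, Adgre1 and Ptprc at or near 0 (sum 29.9 to 33.5 CPM with IL-1β and 14.8 to 16.8 CPM with vehicle). The 5 endothelial markers summed to at most 1.25 CPM and the 5 erythroid markers to at most 1.80 CPM in any sample. Of the 5 osteoblast markers, 4 were tested and all 4 were lower with IL-1β (sum 29.8 to 36.9 CPM against 94.3 to 107 CPM). In bulk samples such as these, fewer cells of a type and less RNA per cell cannot be told apart, and the part of these markers in the results on glucose metabolism was not tested.

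IL-1β raised 9 of the 10 glucose transporter and glycolysis genes, lowered 0 and left Slc2a3 without a call by edgeR, and 0 were lower at an unadjusted p under 0.05 or with DESeq2. Higher calls made up 20.4% and lower calls 19.8% of all genes tested. Among genes with a mean above 50 CPM, which holds for the 9 genes that rose, the shares were 26.7% and 31.4%. In each of the 9 genes, all 4 IL-1β samples lay above all 4 vehicle samples, an arrangement found in 18.7% of all genes tested. The increases were moderate, at 1.23-fold for Hk2 to 1.86-fold for Pfkfb3. Hence 0 of the 10 genes reached the more than 2-fold change that defines a differentially expressed gene (DEG) here, with edgeR or with DESeq2, although 9 of them had an adjusted p under 0.05 with either tool. Upregulated DEGs were 2.86% and downregulated DEGs 2.35% of all genes tested. The median Log2 fold change was 0.48 over the 10 genes and 0.00 over all genes tested. Summed over the 10 genes, the level was 8255 to 8526 CPM in the IL-1β samples and 5523 to 5664 CPM in the vehicle samples. Most of this sum came from Pkm, Ldha and Pgk1.

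The promoters of these genes are shown because 9 of the 10 genes moved together and because several are textbook HIF targets. RefSeq promoters of the build GRCm38.p6, each with 250 bases before and 50 bases after a transcription start, were matched by symbol for 9 of the 10 genes, in 14 windows, and Slc2a3 had no entry. Shown here are the windows of the 3 genes with the largest increases (Pfkfb3, Slc2a1 and Pkm) and of the 3 most abundant genes (Pkm, Ldha and Pgk1), with both windows for Pkm and, for Pfkfb3 and Ldha, the one of 2 windows that held more motif matches. They are chr4:119108495-119108794 on the plus strand for Slc2a1, chr2:11502041-11502340 on the minus strand for Pfkfb3, chrX:106186850-106187149 on the plus strand for Pgk1, chr9:59656326-59656625 and chr9:59656977-59657276 on the plus strand for Pkm, and chr7:46845554-46845853 on the plus strand for Ldha. Sequences run 5′ to 3′ on the strand of the gene. Capitals mark the HIF core motif, ACGTG or GCGTG, read on either strand.
Slc2a1: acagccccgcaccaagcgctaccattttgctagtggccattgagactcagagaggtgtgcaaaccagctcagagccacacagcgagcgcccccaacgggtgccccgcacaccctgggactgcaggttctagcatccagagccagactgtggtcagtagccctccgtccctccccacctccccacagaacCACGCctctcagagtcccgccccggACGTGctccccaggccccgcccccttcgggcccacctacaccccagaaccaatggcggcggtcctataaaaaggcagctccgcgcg
Pfkfb3: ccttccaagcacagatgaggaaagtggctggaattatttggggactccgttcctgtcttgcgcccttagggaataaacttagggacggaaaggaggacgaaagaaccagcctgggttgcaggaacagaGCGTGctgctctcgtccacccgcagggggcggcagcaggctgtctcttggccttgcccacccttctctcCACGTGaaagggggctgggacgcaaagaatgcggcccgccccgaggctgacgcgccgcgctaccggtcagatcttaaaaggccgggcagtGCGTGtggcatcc
Pgk1: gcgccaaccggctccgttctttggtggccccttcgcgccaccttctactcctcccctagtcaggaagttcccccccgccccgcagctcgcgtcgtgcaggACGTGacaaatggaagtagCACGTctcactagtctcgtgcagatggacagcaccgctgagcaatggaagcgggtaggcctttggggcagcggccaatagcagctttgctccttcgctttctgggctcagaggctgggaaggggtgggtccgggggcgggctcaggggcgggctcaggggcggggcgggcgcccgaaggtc
Pkm first window: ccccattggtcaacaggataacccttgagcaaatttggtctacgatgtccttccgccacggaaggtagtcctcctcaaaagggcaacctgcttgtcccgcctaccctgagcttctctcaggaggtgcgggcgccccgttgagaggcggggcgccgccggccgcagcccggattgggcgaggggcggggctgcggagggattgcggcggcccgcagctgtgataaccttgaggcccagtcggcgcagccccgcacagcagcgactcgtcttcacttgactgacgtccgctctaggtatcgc
Pkm second window: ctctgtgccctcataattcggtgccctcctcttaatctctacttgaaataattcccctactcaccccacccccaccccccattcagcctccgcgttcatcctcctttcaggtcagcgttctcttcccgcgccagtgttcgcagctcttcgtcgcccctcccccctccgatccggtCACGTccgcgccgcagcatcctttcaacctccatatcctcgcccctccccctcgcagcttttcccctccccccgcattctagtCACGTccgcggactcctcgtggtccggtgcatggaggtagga
Ldha: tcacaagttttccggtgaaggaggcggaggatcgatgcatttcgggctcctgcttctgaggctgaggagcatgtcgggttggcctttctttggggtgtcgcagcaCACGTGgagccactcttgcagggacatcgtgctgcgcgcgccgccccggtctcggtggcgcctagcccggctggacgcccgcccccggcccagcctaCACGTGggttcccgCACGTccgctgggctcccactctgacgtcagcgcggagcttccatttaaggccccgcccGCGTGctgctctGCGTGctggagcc

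The core was present in 11 of the 14 windows, against 43.8% of the 32851 promoter windows of all genes. Each of the 9 genes had it in at least 1 window, some of them out of 2, and no share per gene was computed over all genes. The Ldha window held 7 matches between positions -145 and 38 from the transcription start, the Pfkfb3 window held 4 between -122 and 38, and the Slc2a1 window held 2, at -61 and -36. Both Pgk1 matches lay upstream of the start, at -150 and -131. The windows not printed held 2 matches for Ldha and 1 for Pfkfb3, without an E-box. The first Pkm window held 0 matches, while the second held 2, at -75 and 9. A longer palindrome that contains the core on both strands, CACGTG (the E-box), was found in 2 of the 14 windows, those printed for Pfkfb3 and Ldha, and in 7.15% of all windows. Such a count in 14 windows would not be unusual at that share, so that it does not set these windows apart. Each E-box counts as 2 of the matches given above, which lie 1 base apart on opposite strands and show as a single capitalised stretch. The GC box GGGCGG, read on either strand, was found in 9 of the 14 windows and in 35.7% of all windows. A κB motif, the sequence class bound by NF-κB, was found in 0 of the 14 windows and in 4.51% of all windows. At that share, few or no matches would be found in 14 windows of any genes, so that the 0 does not set these windows apart. The windows of these genes were rich in CpG, with a median of 22 CpG per window against 7 over all windows, and CpG is part of both core motifs. The matches describe these letters in these windows, and whether a factor bound there was not measured.

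Both transporters carry glucose across the plasma membrane, but only Slc2a1 was abundant. Slc2a1 (chr4:119108711-119137983, plus strand, GRCm38) was at 575, 557, 591 and 577 CPM in the 4 IL-1β samples and at 329.8, 349, 348 and 359.7 CPM in the 4 vehicle samples. The groups did not overlap, and the 4 IL-1β samples lay close together. The mean rose from 347 ± 12.4 to 575 ± 13.9 CPM (SD, n = 4), which is a Log2 fold change of 0.73 (SE 0.0325, adjusted p = 3.35e-17), with a 95% interval of 0.66 to 0.80. Slc2a3 (chr6:122727809-122801640, minus strand), a transporter known for its high affinity for glucose, was at 2.88, 2.74, 2.61 and 3.62 CPM with IL-1β and at 2.83, 2.89, 2.35 and 3.35 CPM with vehicle. These values rest on 32 to 51 counts per IL-1β sample and 33 to 51 counts per vehicle sample, and the groups overlapped. The Log2 fold change was 0.05 (SE 0.170, adjusted p = 0.865), with an interval of -0.30 to 0.39, which leaves room for a modest change in either direction. Without IL-1β replicate 4 the estimate was -0.07, and without vehicle replicate 4 it was 0.12.

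**Figure D1:**
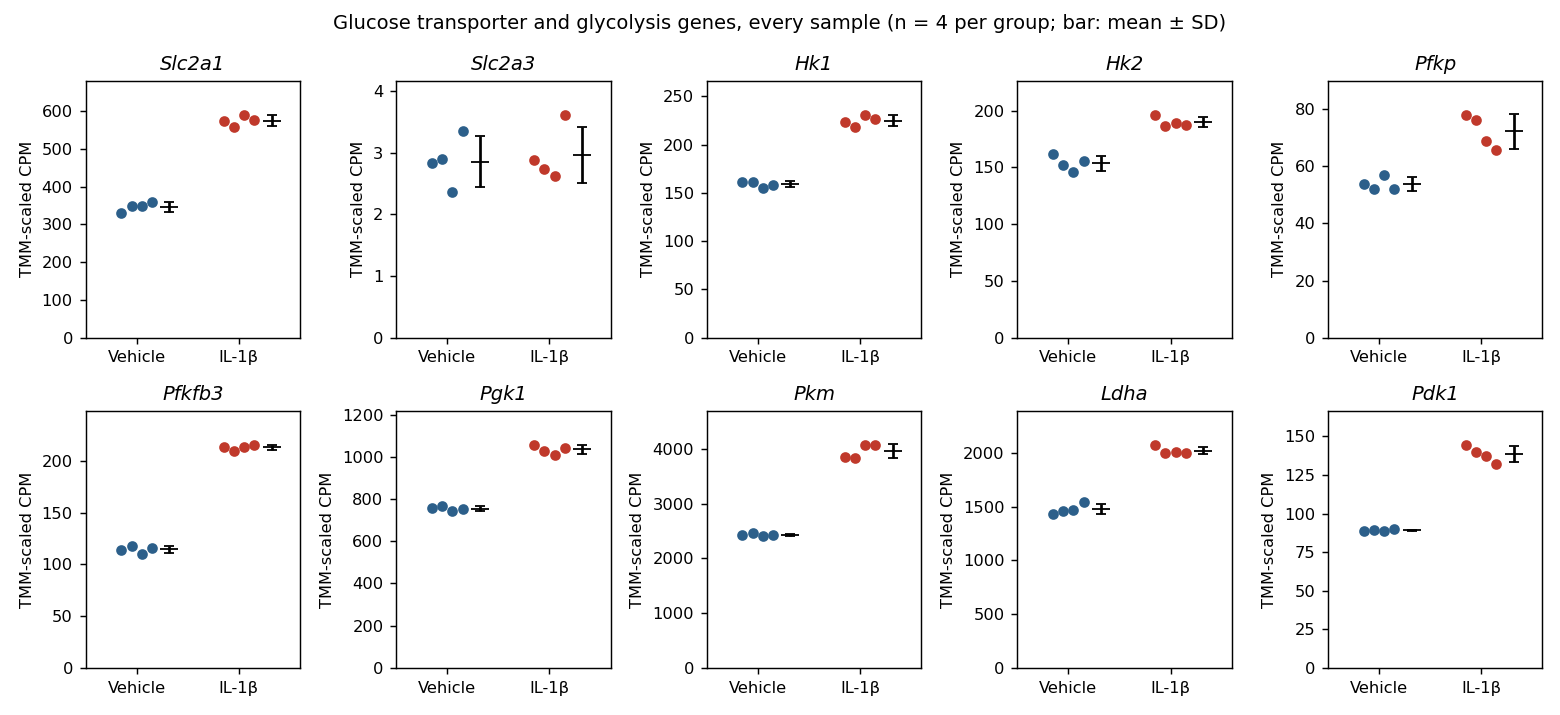
TMM-scaled CPM of the 10 genes in every sample, with vehicle in blue, IL-1β in red and a bar for the mean ± SD of 4 samples; each panel has its own axis from 0. In 9 panels all 4 IL-1β points lie above all 4 vehicle points, whereas the Slc2a3 points overlap at 2.35 to 3.62 CPM.

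The hexokinases phosphorylate glucose and thereby hold it in the cell. Hk1 (chr10:62268855-62379908, minus strand), the form of most tissues, was at 223, 218, 231 and 227 CPM with IL-1β and at 161, 162, 155 and 159 CPM with vehicle. Hk2 (chr6:82725025-82774454, minus strand), the inducible form known from muscle and tumours, was at 197, 186, 189.5 and 188 CPM with IL-1β and at 161, 152, 146 and 156 CPM with vehicle. Both rose without overlap, and Hk1 rose more, with a Log2 fold change of 0.50 (SE 0.0306, adjusted p = 5.79e-14) against 0.30 (SE 0.0328, adjusted p = 9.13e-09) for Hk2. Their 95% intervals, 0.44 to 0.56 and 0.24 to 0.37, did not overlap. Hk2 had the smallest increase of the 9 genes.

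Pfkfb3 (chr2:11471433-11554077, minus strand) showed the largest increase among the 10 genes. Its enzyme makes fructose 2,6-bisphosphate, the activator of phosphofructokinase. It was at 213, 209.8, 213 and 215 CPM with IL-1β and at 114, 118, 110.2 and 115 CPM with vehicle. Spread within each group was small against the gap between them, with means of 213 ± 2.32 and 114 ± 3.08 CPM. The Log2 fold change was 0.90 (SE 0.0297, adjusted p = 3.03e-20) and lay between 0.88 and 0.91 under all 16 alternatives. Pfkp (chr13:6579768-6648777, minus strand), the platelet-type subunit of phosphofructokinase, was at 78.1, 76.4, 68.8 and 65.5 CPM with IL-1β and at 53.9, 52.1, 57.1 and 52.1 CPM with vehicle. Relative to their mean, the IL-1β samples were more scattered than for the other 8 genes that rose, but the lowest still exceeded the highest vehicle sample. The Log2 fold change was 0.42 (SE 0.0494, adjusted p = 4.43e-08). Of the exon bases of Pfkp, 5.58% overlap the gene Pitrm1 on the opposite strand, and the strandedness of the libraries is not given in the sources used here.

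The abundant enzymes of lower glycolysis rose together. Pgk1 (chrX:106187100-106203699, plus strand), which makes ATP in the first of the energy-yielding steps, was at 1057, 1029, 1011 and 1041 CPM with IL-1β and at 756, 767, 742 and 753 CPM with vehicle. Its Log2 fold change was 0.45 (SE 0.0281, adjusted p = 6.83e-14). Pkm (chr9:59656368-59679375, plus strand), the pyruvate kinase gene of most tissues outside the liver, was at 3859.9, 3836, 4065 and 4078 CPM with IL-1β and at 2422, 2460.4, 2410.1 and 2434 CPM with vehicle. The difference of the Pkm means, 3959.7 ± 129.5 against 2432 ± 21.6 CPM, was the largest of the 10 genes in CPM, and the Log2 fold change was 0.70 (SE 0.0253, adjusted p = 2.04e-19). Counts per gene cannot separate the M1 and M2 splice forms of Pkm. Ldha (chr7:46841475-46855627, plus strand), which turns pyruvate into lactate, was at 2075, 1999.7, 2010.3 and 1999 CPM with IL-1β and at 1433, 1461, 1467 and 1542 CPM with vehicle. The groups were far apart, with a Log2 fold change of 0.45 (SE 0.0276, adjusted p = 5.08e-14), nearly that of Pgk1.

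Reads of these abundant genes can be shared with near-identical copies elsewhere in the genome or with an overlapping gene. Copies with at least 95% identity over at least 300 bases were found among the annotated transcripts of 4 other genes each for Pgk1 and Ldha and of 2 for Pkm. The counts of the copies listed in the table came to 1.06 to 1.72% of those of Pgk1, 1.22 to 1.98% of those of Ldha and 2.46 to 3.12% of those of Pkm in any sample. Reads that match both a gene and its copy may be in neither count, so that these shares do not measure how many were shared. Of the 2 genes found for Pkm, Gm49759 overlaps Pkm itself on the same strand, over 15.3% of its exon bases. Only the other, Gm6560, has counts, so that the share given for Pkm is that of Gm6560. Pfkp shared such a stretch with Pitrm1, the gene that overlaps it, whose counts were 86.3 to 143% of those of Pfkp. No such copies were found for Slc2a1, Slc2a3, Hk1, Hk2, Pfkfb3 or Pdk1. The other genes of the pathway were not searched for copies.

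Pdk1 (chr2:71873224-71903858, plus strand), whose kinase phosphorylates and inhibits pyruvate dehydrogenase, was at 145, 139.8, 137 and 132 CPM with IL-1β and at 89.0, 89.1, 88.9 and 89.8 CPM with vehicle. The vehicle samples were nearly equal, and every IL-1β sample lay above them. The mean rose from 89.2 ± 0.387 to 139 ± 5.10 CPM, a Log2 fold change of 0.63 (SE 0.0336, adjusted p = 2.06e-15).

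Levels of different genes were compared per kilobase of exon (CPM per kb), using the gene lengths listed beside the counts. In vehicle samples the order was Pkm (486 ± 4.31), Ldha (446 ± 14.2), Pgk1 (336 ± 4.53), Slc2a1 (98.8 ± 3.54), Hk2 (25.8 ± 1.11), Hk1 (18.6 ± 0.340), Pfkfb3 (15.1 ± 0.408), Pdk1 (11.5 ± 0.0497), Pfkp (4.02 ± 0.176) and Slc2a3 (0.394 ± 0.0564). With IL-1β the order was the same except that Pfkfb3 (28.1 ± 0.307) passed Hk1 (26.4 ± 0.645). Within each group, no neighbours in the order overlapped in any sample. The listed length counts every annotated exon, so that a gene with many long alternative exons appears lower on this scale.

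The rest of the pathway did not move as 1 block. Of 57 other genes of sugar transport, glycolysis, lactate and pyruvate transport and pyruvate dehydrogenase, 40 were tested. Of these, 14 rose, 9 fell and 17 were not called, with a median Log2 fold change of 0.07. Over all genes tested, 20.4% were called higher and 19.8% lower, so that the genes that fell were near the general share. The other 17 were too low to be tested. The genes that rose included the remaining abundant enzymes of glycolysis, whereas most of those that fell had low levels.

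**Figure D2:**
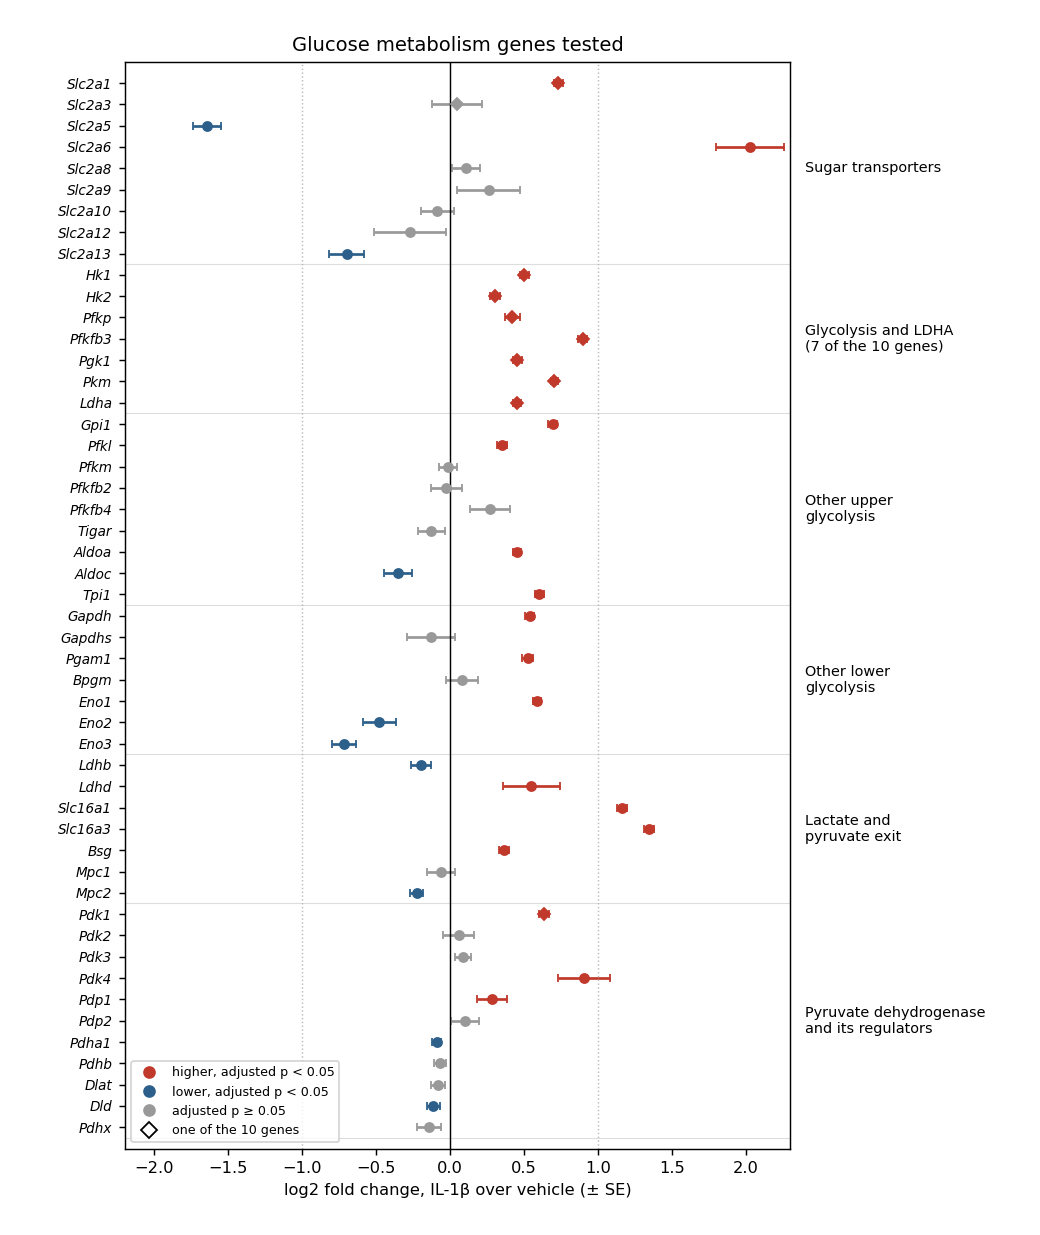
Log2 fold change ± SE of the 50 glucose metabolism genes tested, grouped by role, with red for higher, blue for lower and grey for no call, diamonds for the 10 genes and dotted lines at the 2-fold DEG limit. The diamonds lie between 0.05 and 0.90, while the other genes spread from -1.65 (Slc2a5) to 2.03 (Slc2a6).

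Among the other enzymes of upper glycolysis, 4 of the 9 tested rose. These were Gpi1, the isomerase after hexokinase (Log2 fold change 0.69, adjusted p = 2.84e-17), Tpi1, the triose isomerase (0.60), Aldoa, the main aldolase (0.45), and Pfkl, the liver-type phosphofructokinase subunit (0.35). Aldoc, a minor aldolase, fell (-0.35, adjusted p = 0.00335), and Pfkm, Pfkfb2, Pfkfb4 and Tigar were not called. Among the other enzymes of lower glycolysis, 3 of the 7 tested rose. These were Eno1 (2612 ± 14.7 against 1737 ± 57.4 CPM, Log2 fold change 0.59), Gapdh (3649 ± 128 against 2515 ± 121 CPM, 0.54) and Pgam1 (0.52). Eno2, known from neurons, and Eno3, known from muscle, fell by 0.48 and 0.72 on the log2 scale, and Gapdhs and Bpgm were not called. The level of Eno3 fell from 18.3 ± 0.338 to 11.1 ± 1.11 CPM (adjusted p = 1.89e-08). The 5 skeletal muscle markers summed to 0.360 to 0.772 CPM with IL-1β and to 1.85 to 2.83 CPM with vehicle, and their part in the Eno3 difference was not tested.

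Ranked by level, the pathway showed a regular pattern, which was noticed after the values were seen and is given as a description. At each of the 10 steps from hexokinase to pyruvate kinase, the listed gene highest in CPM per kb with vehicle rose with IL-1β. The Log2 fold changes ran from 0.30 (Hk2) to 0.70 (Pkm). All of these genes had a mean above 50 CPM, where 26.7% of the genes tested were called higher. Gpi1 and Tpi1 were the only genes listed for their steps. Hk2 led Hk1 per kb only, with vehicle means of 154 CPM for Hk2 and 159 CPM for Hk1. Of the 14 other isozymes of these steps, 2 rose (Hk1 and Pfkp), 3 fell (Aldoc, Eno2 and Eno3), 2 were not called (Pfkm and Gapdhs) and 7 were too low to be tested. Low genes have larger errors, so that a missing call at low level carries less weight than one at high level.

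**Figure D3:**
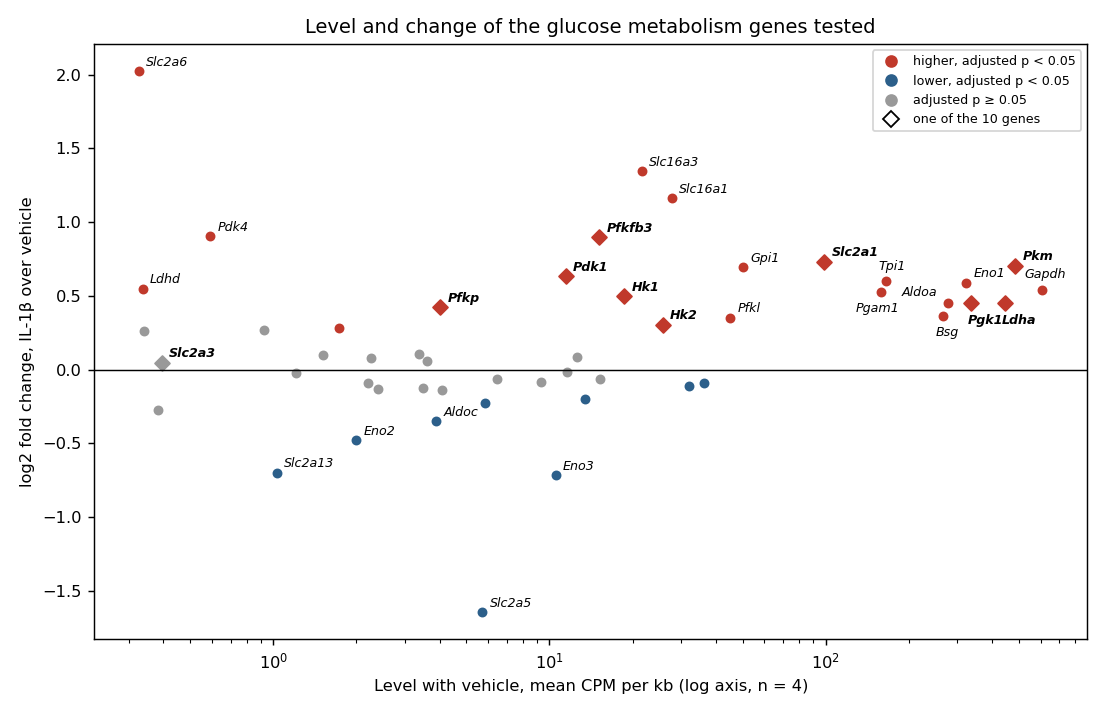
Log2 fold change with IL-1β against the vehicle level in CPM per kb (log axis) for the same 50 genes, with the colours and diamonds as in the plot by role. Pfkl (45.2 CPM per kb) and all genes with a higher vehicle level lie above 0, and the genes below 0 lie at lower levels.

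The sugar transporters other than Slc2a1 and Slc2a3 had low levels, and 7 of the 11 listed were tested. Slc2a6, known as a transporter of intracellular membranes in inflammatory cells, was at 3.78, 2.96, 4.75 and 5.32 CPM with IL-1β and at 0.577, 1.10, 1.14 and 1.38 CPM with vehicle, from 41 to 80 and 10 to 21 counts. It had the largest Log2 fold change of the pathway, 2.03 (SE 0.229, adjusted p = 2.14e-08), but stayed far below Slc2a1 per kilobase (1.31 against 164 CPM per kb with IL-1β). Slc2a5, the fructose transporter, was at 6.40, 6.92, 6.06 and 5.60 CPM with IL-1β and at 20.8, 20.6, 18.5 and 17.9 CPM with vehicle. It was the 1 downregulated DEG of the pathway (Log2 fold change -1.65, adjusted p = 8.22e-15). Slc2a13, a myo-inositol transporter, fell by 0.70 on the log2 scale, and Slc2a8, Slc2a9, Slc2a10 and Slc2a12 were not called.

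Genes of lactate export had larger increases than Ldha, with 95% intervals of the Log2 fold change of 1.27 to 1.42 for Slc16a3 and 1.09 to 1.23 for Slc16a1 against 0.40 to 0.51 for Ldha. Slc16a3 (MCT4), the lactate exporter of glycolytic cells, was at 295, 277, 294 and 302 CPM with IL-1β and at 111, 114, 114 and 122 CPM in vehicle samples (Log2 fold change 1.34, SE 0.0350, adjusted p = 9.10e-23). Slc16a1 (MCT1), which carries lactate in both directions, was at 283, 267, 267 and 280.1 CPM with IL-1β and at 128, 124, 121 and 117 CPM in vehicle samples (Log2 fold change 1.16, adjusted p = 1.41e-21). Both were upregulated DEGs, and neither group overlapped the other. Bsg (basigin), the chaperone that carries both to the membrane, rose by 0.36. Ldhd, the D-lactate dehydrogenase, rose at a low level (0.55, adjusted p = 0.0224), with adjusted p = 0.0674 by DESeq2. Mpc2, a subunit of the mitochondrial pyruvate carrier, fell by 0.23 on the log2 scale, its partner Mpc1 was not called, and 3 of the 10 listed genes were too low to be tested.

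At the entry to mitochondrial oxidation, some kinase genes rose, while the genes of the enzyme complex fell slightly or were not called. Besides Pdk1, Pdk4 rose from 2.07 ± 0.408 to 3.87 ± 0.336 CPM (Log2 fold change 0.90, adjusted p = 9.04e-05), and Pdk2 and Pdk3 were not called. Of the 5 genes of the complex, Pdha1 fell by 0.09 and Dld by 0.11 on the log2 scale, with overlapping groups for Dld, and Pdhb, Dlat and Pdhx were not called. Pdp1, a phosphatase that reactivates the complex, rose by 0.28, and Pdp2 was not called. The calls of Dld and Pdp1 were lost with DESeq2 (adjusted p = 0.0573 and 0.0647) and under further alternatives. That of Pdha1 was lost with no filter on low counts (adjusted p = 0.0567) and without IL-1β replicate 4 (adjusted p = 0.0672).

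Shares within isozyme families were computed from CPM per kb and are given without a test. Pdk1 made up 49.5 ± 2.43% of the 4 PDH kinases with IL-1β and 40.6 ± 1.40% with vehicle. On this scale Pdk3 was the most abundant with vehicle (44.6 ± 2.02%, and 37.1 ± 0.890% with IL-1β). Before division by length, Pdk1 stood above Pdk3 with vehicle (89.2 against 32.3 CPM), so that this rank depends on the listed lengths. Pfkfb3 made up 91.5 ± 0.278% of the Pfkfb family with IL-1β and 86.6 ± 0.595% with vehicle. Hk2 made up 54.7 ± 0.817% of Hk1 and Hk2 with IL-1β and 58.0 ± 0.815% with vehicle, so that the balance moved towards Hk1. The mean with vehicle was 159 CPM for Hk1 and 154 CPM for Hk2, so that their order also depends on the lengths. Ldha made up 98.1 ± 0.109% of the Ldha and Ldhb pair with IL-1β and 97.1 ± 0.120% with vehicle, while Ldhb, known from oxidative tissues, fell by 0.20 on the log2 scale (adjusted p = 0.0175, and 0.0530 by DESeq2). In these 4 families the samples of the groups did not overlap. Slc2a3 made up 0.249 ± 0.0378% of the Slc2a1 and Slc2a3 pair with IL-1β and 0.397 ± 0.0514% with vehicle, also without overlap, a fall that came with the rise of Slc2a1. The share of Pfkp among phosphofructokinase subunits overlapped between groups (7.26 ± 0.788% and 6.62 ± 0.462%), and Pfkl was the main subunit in both.

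**Figure D4:**
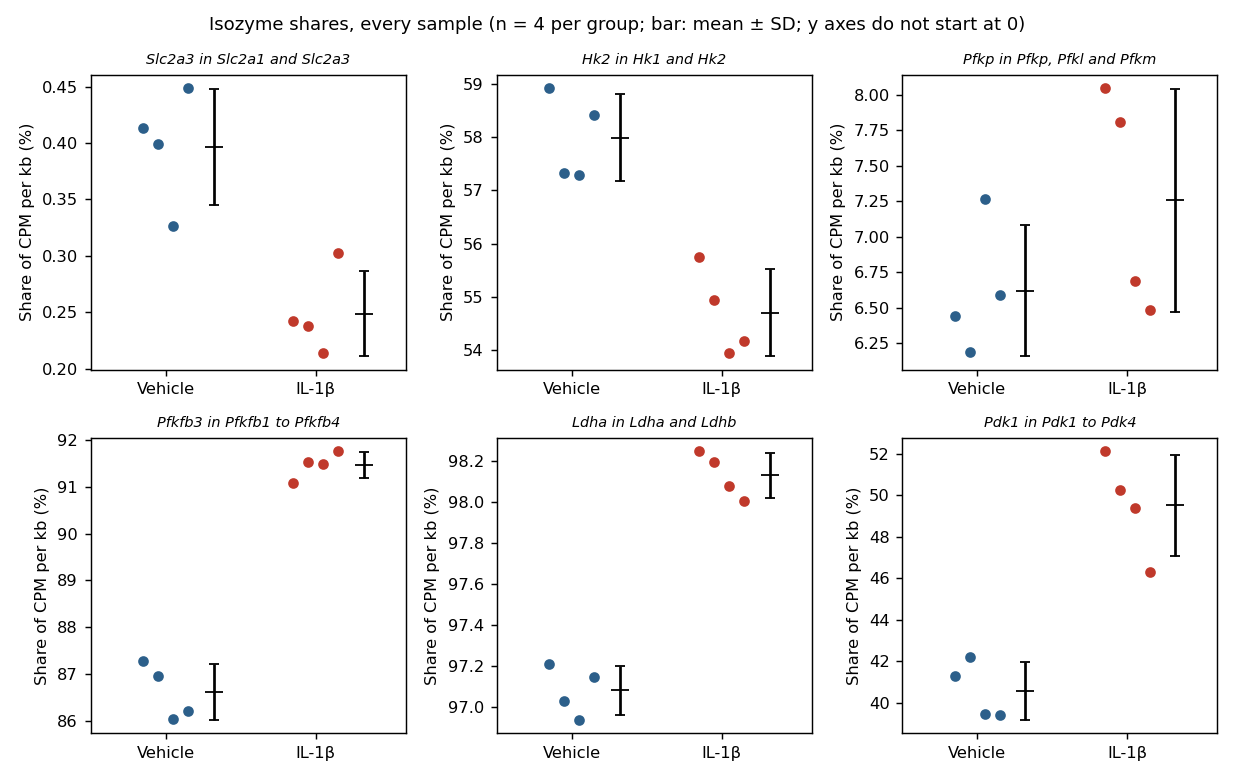
Share of 1 isozyme in its family's summed CPM per kb, in percent, for every sample, with the mean ± SD of 4 samples; the y axes do not start at 0 and differ between panels. Hk2 and Slc2a3 shares are lower and Pfkfb3, Ldha and Pdk1 shares higher in all 4 IL-1β samples, and the Pfkp panel overlaps.

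Pathways that branch off glycolysis were examined as well. For comparison, 20.4% of all genes tested were called higher and 19.8% lower. All 8 genes of the pentose phosphate pathway, which yields NADPH and ribose, were tested, and 5 rose, 1 fell and 2 were not called. Pgd, which catalyses a later NADPH-yielding step, rose from 164 ± 2.99 to 333 ± 6.84 CPM and passed the DEG limit narrowly (Log2 fold change 1.02, adjusted p = 3.83e-21). H6pd (0.92), Taldo1 (0.55), Tkt (0.35) and G6pdx (0.35) rose less, and Rpia fell by 0.34 on the log2 scale. Among 13 genes of glycogen and hexosamine metabolism, 6 rose, 2 fell and 5 were not called. Gbe1, the glycogen branching enzyme, rose from 12.2 ± 1.16 to 35.2 ± 3.00 CPM (Log2 fold change 1.52, adjusted p = 1.86e-16). Enzymes of both directions of glycogen metabolism rose, namely Gys1 (0.52) for synthesis and Pygl (0.79) and Pygb (0.37) for breakdown, together with Pgm1 (0.79), which links glycogen to glycolysis. Gfpt1, the rate-limiting enzyme of the hexosamine pathway that feeds glycosaminoglycan synthesis, fell from 228 ± 5.37 to 136 ± 3.20 CPM (Log2 fold change -0.75, adjusted p = 5.99e-18). Gnpnat1, a later enzyme of that pathway, was lower at 3.99 ± 0.341 against 5.03 ± 0.341 CPM (adjusted p = 0.0350, 0.110 by DESeq2 and 0.0574 with the replicate block), while Uap1 rose by 0.42.

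Of the 12 listed regulators of glycolysis, 10 were tested, of which 7 rose, 2 fell and 1 was not called. The shares over all genes tested were 20.4% higher and 19.8% lower. Hif1a, the oxygen-sensitive HIF subunit, was at 737, 715, 683 and 685 CPM with IL-1β and at 486, 492, 494 and 493 CPM in vehicle samples (Log2 fold change 0.52, adjusted p = 2.63e-14). Epas1 (HIF-2α) rose by 0.67, and Arnt, their shared partner, was not called. The HIF hydroxylases rose as well, with Egln3 from 8.65 ± 1.09 to 33.6 ± 4.05 CPM (Log2 fold change 1.94, adjusted p = 5.48e-17) Egln1 by 0.93 and Egln2 by 0.20. Vhl, which marks hydroxylated HIF for degradation, rose by 0.29, and Mlxip, a glucose-sensing transcription factor, by 0.31. Mlxipl and Ppargc1a were too low to be tested. Txnip, a glucose-responsive gene whose protein restrains glucose uptake, fell by 0.29 on the log2 scale, and Myc, a known activator of glycolysis genes, fell by 0.14. HIF activity is set largely by protein stability, which these data do not measure.

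**Figure D5:**
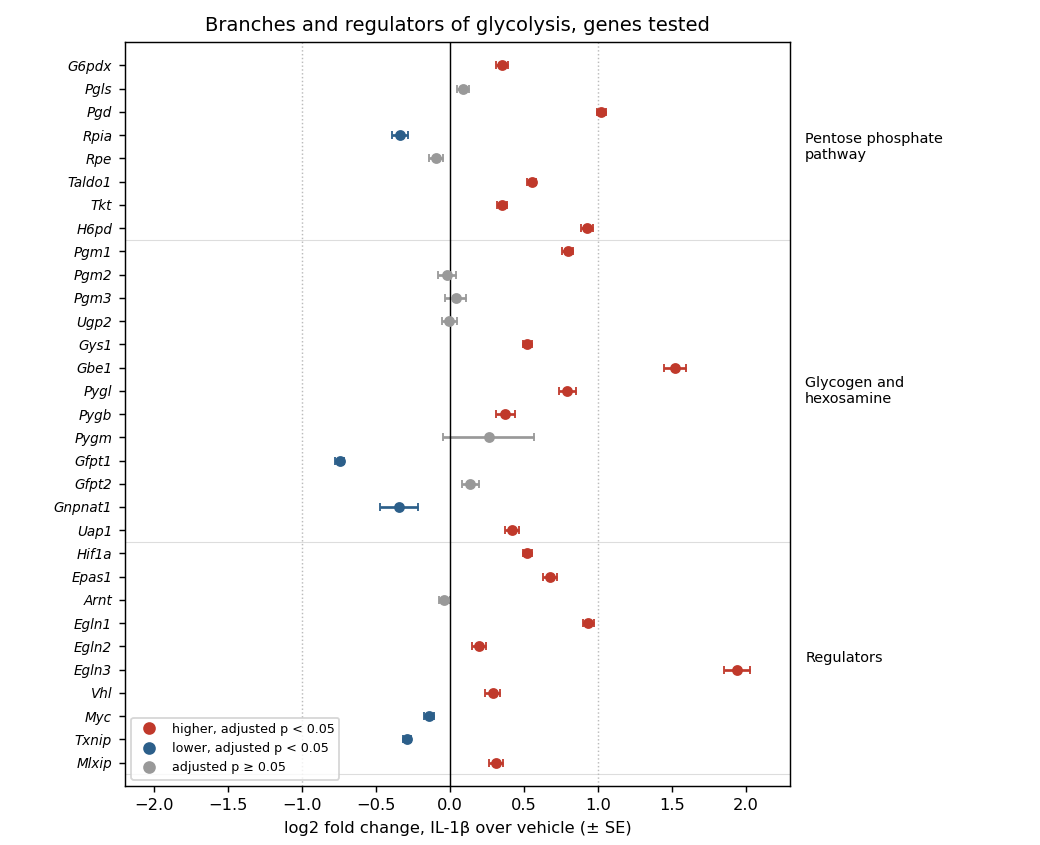
Log2 fold change ± SE with IL-1β of the 31 tested genes of the pentose phosphate pathway, of glycogen and hexosamine metabolism and of the regulators, coloured by call, with dotted lines at the 2-fold DEG limit. Pgd, Gbe1 and Egln3 lie beyond the upper line, and Gfpt1 is the lowest at -0.75.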

How the data were processed

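RNA-Seq was measured in 8 samples, 4 per group, grouped by the treatment in their labels. Reads had been trimmed by cutadapt and aligned to mm10 (GENCODE annotation) using STAR, version 2.4.2a in the submitters' processing notes. The authors deposited the counts that featureCounts gave for each gene symbol, as whole numbers and unscaled, and it is not stated whether the table precedes or follows their batch correction with RUVseq. The deposited table also lists a gene length in bases (unit: other), which was used here for CPM per kb. The length equals the summed exons of GENCODE vM21 (GRCm38) for all 10 genes, and positions come from that annotation.

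Counts were normalized by TMM and tested with edgeR 4.0.16 (quasi-likelihood test, treatment as the only term, R 4.3.3, limma 3.58.1), with Benjamini-Hochberg adjustment over 14404 genes, those above 1 CPM in 4 or more samples. A gene was called at an adjusted p under 0.05 and counted as a DEG where the Log2 fold change also exceeded 1 or lay below -1. Standard errors and 95% intervals refer to the Log2 fold change, with 26.9 degrees of freedom. Other values used Python 3.11.15, pandas 2.3.3, numpy 2.4.6, scipy 1.17.1 and matplotlib 3.10.9. The code was tested on simulated data. The floor of 3 counts covers counting error only.

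The 10 genes and all gene lists were chosen with earlier results of these data known. All 10 genes are named with values, and from the other lists genes are named by list, with the largest rise and fall of each. Promoters were taken from RefSeq. Their orientation was checked against GENCODE transcripts, where the ends of 10 of 14 windows were found, among them 6 of 6 on the minus strand.

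Alternatives were DESeq2 1.42.0, its size factors or the total library size as scaling, other filters on low counts, the replicate number as a block, 1 RUVs factor, each sample left out and, chosen after seeing the data, the exclusion of Gm26917, which took 13.2 to 14.6% of the counts of each sample. Replicate counts differed by more than sampling noise (chi-square per degree of freedom 1.98 to 6.35 within groups). The study's miRNA-Seq, mouse experiments and human tissues were not analysed here, and 1 gene of the lists is not reported here.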

Additional observations from a re-analysis of the deposited data

Results flagged for a closer look

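For 81 listed genes and the 6 isozyme shares, single samples were compared with the other 3 of their group by Dixon's ratio. In 10 of 174 groups it passed its 95% critical value for 4 samples, where chance gives about 1 in 20 (8.7 groups). Among the 10 glucose transporter and glycolysis genes, Ldha was the only one, since IL-1β replicate 1 was at 2075 CPM and the other 3 at 1999 to 2010.3 CPM, all above every vehicle sample.

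The other samples that stood apart were Gapdhs in IL-1β replicate 1 (4.325 CPM, others 3.21 to 3.32), Pdk3 in IL-1β replicate 4 (36.17 CPM, others 33.3 to 33.7), Pgm2 in IL-1β replicate 1 (20.72 CPM, others 23.7 to 23.8) and Mlxip in IL-1β replicate 1 (49.74 CPM, others 52.6 to 53.1). In the vehicle group they were Bpgm in replicate 1 (9.461 CPM, others 7.62 to 7.63), Rpe in replicate 1 (39.92 CPM, others 43.4 to 43.7), Mlxip in replicate 1 (38.31 CPM, others 43.2 to 44.2), Epas1 in replicate 3 (32.66 CPM, others 36.7 to 37.2) and Egln2 in replicate 3 (63.61 CPM, others 67.0 to 67.7).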

How the results depend on the processing

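All 160 values of the 10 genes under the 16 alternatives kept their side of the threshold, and 9 of the 10 were higher in each alternative. Over the other 71 listed genes, 1095 of 1130 values did so, while 25 calls were lost (Ldhb, Ldhd, Pdp1, Pdha1, Dld and Gnpnat1) and 10 were gained. The gained calls were higher for Pfkfb4, Pgls and Gfpt2 and lower for Rpe. The cause was not tested. Genes that were called kept their direction, while the sign turned under at least 1 alternative for Slc2a3, Pfkm, Pfkfb2, Mpc1, Pdk2, Pgm2, Pgm3 and Ugp2, which were not called. Of the other glucose metabolism genes, 12 to 15 were higher and 7 to 9 lower. With the replicate block, 2857 genes rose and 2786 fell over all genes, against 2944 and 2852 without it, and 9 of the 10 genes rose in both. Of the listed genes, the block ended the call of Gnpnat1 only (adjusted p = 0.0574). Samples with the same number did not deviate together (r = -0.07 to 0.04), so that the numbers were not taken as pairs. With shares of CPM not divided by length, the difference in share with IL-1β was -0.304 percentage points for Slc2a3 (-0.148 per kb), 4.26 for Pfkfb3 (4.85 per kb) and 0.510 for Ldha (1.05 per kb), which follows from the unequal lengths. Of the 10 genes, depth limits Slc2a3 most, at 32 to 51 counts per sample.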
